A study of Drosophila melanogaster with 4 samples.

Results

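Scute peaks that lay in pairs and triplets along the Drosophila melanogaster chromosome arms numbered 327, out of 953 peaks on placed arms (34.3%) and 1276 peaks in the whole list (25.6%). They came from chromatin immunoprecipitation followed by sequencing (ChIP-seq) with an antibody against Scute, in which 2 ChIP libraries and 2 input libraries were made from embryos labelled 0 to 8 h. The collection protocol attached to the same samples is worded for a later window, so the age follows the stage label. All 4 libraries were from the y; cn bw sp strain, whose sex is given as unknown and whose labelled genotype lists y[1] and oc[R3.2] on X, cn[1], bw[1], sp[1], Gr22b[1], Gr22d[1] and CG33964[R4.2] on the second chromosome, and GstD5[1], Rh6[1], LysC[1], MstProx[1] and lab[R4.2] on the third. The ChIP libraries used a crude polyclonal guinea pig serum, and the input libraries held input DNA, the background of a peak caller. Whole embryos were used, so signal from different cells was pooled.

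Members were chosen by position alone. Peaks on U, Uextra and the Het scaffolds were dropped, and on each arm a peak was joined to the run before it if it started no more than 10 kb after the run's end. The 538 resulting runs included 351 single peaks, 99 pairs and 43 triplets. The 142 pairs and triplets held 198 and 129 peaks. The deposited list gives 1 value per peak and none per library, so no value below has a replicate error, the depth is unknown, and no test was made. Scores and widths come from the same comparison of ChIP with input DNA that called the peaks, so they are given as a description.

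Scute is a basic helix-loop-helix activator of the achaete-scute complex. It pairs with Daughterless, binds short E-box sequences and promotes the fate of neural precursors. In the fly, proneural factors are known to act through compact enhancers that may carry several E-boxes, and a gene may have more than 1 such enhancer. The genes beside these peaks are not named, since the gene table used here belongs to FlyBase release 6 and the peaks to release 5.

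The 2 highest scores of the whole list lay in pairs, and the next member ranked 6 in the list. The score of a peak is read as −log10 of the authors' p-value for ChIP over background, so 10 more units means a p-value smaller by 10 orders of magnitude, not a stretch with that many more reads. In each run the peak with the highest score is called the main peak, and the next is called the secondary peak. The strongest pair lay on 3R from 8889516 to 8891434. Its main peak, from 8889516 to 8890341, scored 109.88 over 826 bp, and its secondary peak, from 8891056 to 8891434, scored 23.58 over 379 bp, after a gap of 714 bp. The pair on 2R from 15993770 to 15999055 had a main peak of 94.74 and a secondary peak of 29.79. These peaks were almost equally wide, at 533 and 525 bp, and lay 4228 bp apart. Both of these secondary peaks scored above the upper quartile of all placed peaks, 15.78.

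The next 4 pairs each joined a strong peak to a much weaker one. On 2L, from 4810507 to 4811922, the main peak scored 55.44 and its neighbour 453 bp away scored 9.34. On 3R, from 11923961 to 11925991, the scores were 44.31 and 13.97 across a gap of 789 bp. On 3L, from 5963539 to 5970081, they were 41.66 and 10.11 across 5566 bp. A second 3L pair, from 11002268 to 11004186, scored 36.86 and 10.97 across 841 bp. In all 4, the main peak was also the wider of the pair, at 666 to 850 bp against 231 to 392 bp for the secondary peak.

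Among the triplets, the highest main scores were lower than in the pairs, and some triplets held peaks of nearly equal score. The triplet on 2R from 10316798 to 10321230 had scores of 37.72, 11.77 and 12.90 in order of position, with gaps of 414 and 1972 bp. On 3L, from 21059439 to 21066729, the scores were 35.50, 13.24 and 7.30, with gaps of 58 and 5477 bp. In both, a single strong peak stood at the lower end. The 3L triplet from 16039301 to 16045972 had 2 strong members instead, with scores of 12.58, 32.11 and 35.40 and gaps of 2264 and 2473 bp. Likewise the 2L triplet from 9988127 to 9990257 scored 27.19, 13.94 and 25.96, with gaps of 44 and 659 bp, so that its weakest peak lay in the middle. On 3R, from 2912599 to 2915886, the scores were 16.61, 15.87 and 28.22. The X triplet from 4317989 to 4321046 scored 8.31, 19.09 and 24.43, with narrow peaks of 211, 289 and 279 bp.

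**Figure D1:**
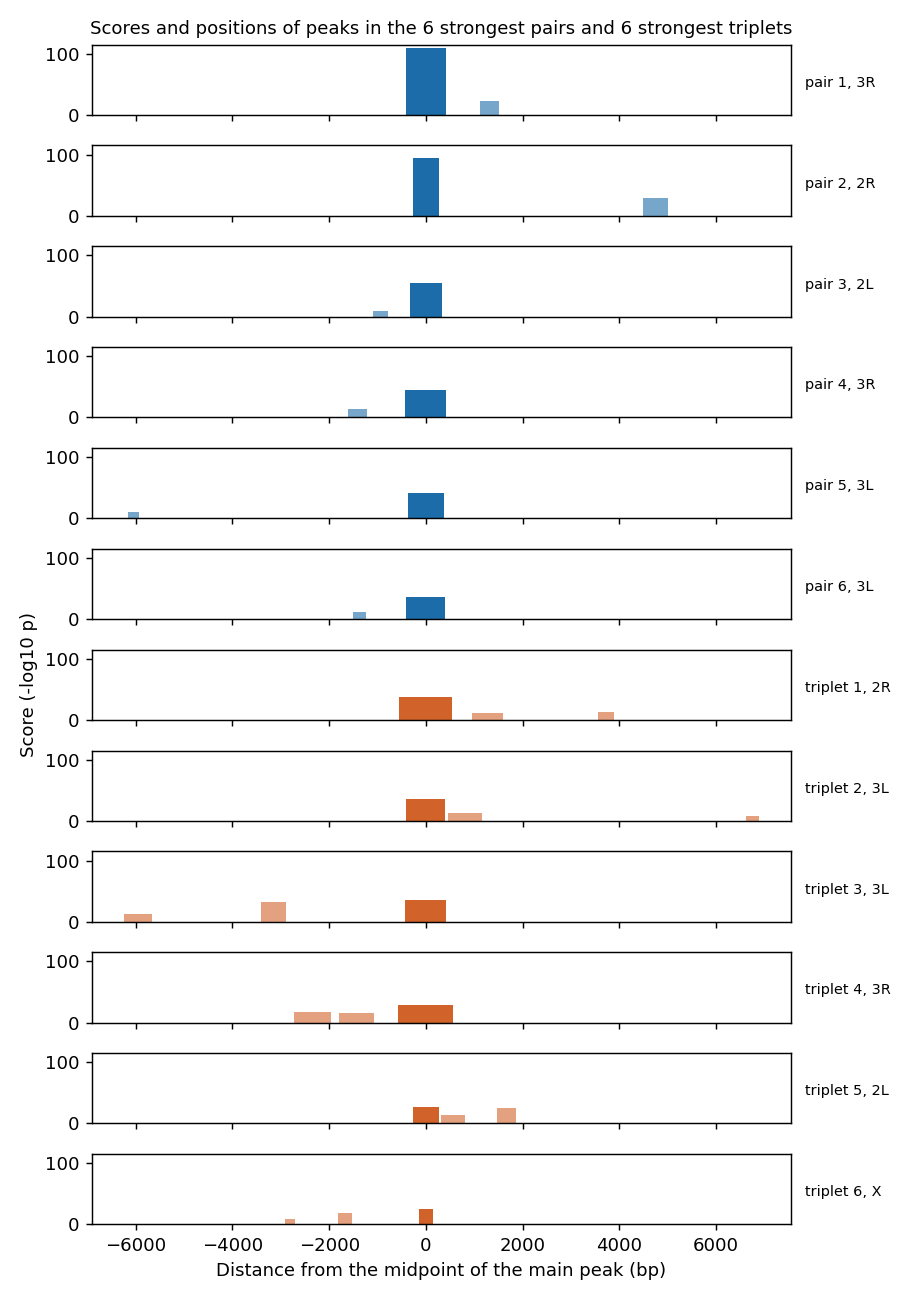
Peak scores (vertical axis, −log10 p) of the 6 pairs (blue) and 6 triplets (orange) with the highest main scores, against distance in bp from the midpoint of the main peak; each bar spans a peak at its true width, dark for the main peak and pale for the others. The main peaks run from 109.88 in the first pair to 24.43 in the sixth triplet, and the triplets led by 35.40 and 27.19 have another peak almost as high as the main one.

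Most neighbouring peaks of a run, as called, were far closer than the distance that joined them. The 185 gaps between neighbouring peaks had a median of 789 bp (95% exact binomial interval of the median over gaps 568 to 976), with quartiles of 223 and 2382 bp and a range of 44 to 9626 bp. Of these, 107 (57.8%) were under 1000 bp, 72 (38.9%) were under 500 bp and 25 (13.5%) were under 100 bp. Only 18 (9.73%) reached 5000 bp. Gaps in pairs and in triplets had similar medians, at 789 bp over 99 gaps and 778.5 bp over 86 gaps. Long gaps were a larger share in triplets, where 12 of 86 gaps reached 5000 bp, against 6 of 99 in pairs. The 95% exact intervals of these shares overlapped, at 7.42% to 23.1% and 2.26% to 12.7%, and both gaps of a triplet were counted. A gap counts the bases between the end of a peak and the start of the next, and from midpoint to midpoint the median distance was 1243.5 bp.

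The shortest gaps were those of the 2L pair from 4457355 to 4458192 and of the 2L triplet from 9988127 to 9990257, both 44 bp, followed by 48 bp in the 3R pair from 14484292 to 14484879. Whether peaks this close are separate sites or fragments of 1 bound region was not tested, and the list does not tell. Joining peaks within 500 bp before runs were built left 96 pairs and 23 triplets, against 99 and 43 as called, with a median gap of 1994.5 bp, against 789 bp. These were not the same pairs. The 38 called pairs with a gap under 500 bp became single peaks, and some of the 96 came from longer runs. Joining runs at 20 kb gave a median gap of 1196 bp. As called, 29 of the 43 triplets had at least 1 gap under 500 bp. The longest gaps lay in the 3R triplet from 16648099 to 16658982, with 9626 bp, and in the 2R triplets from 4544313 to 4555453 and from 1542084 to 1559848, with 9163 and 9113 bp.

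**Figure D2:**
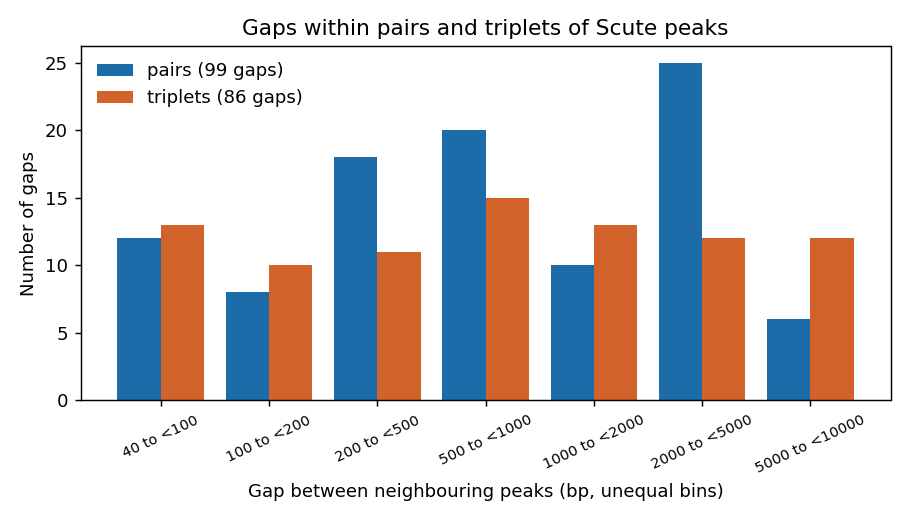
Number of gaps (vertical axis) by gap length in bp (horizontal axis, bins of unequal width) for the 99 gaps of pairs (blue) and the 86 gaps of triplets (orange). Pairs have 25 gaps of 2000 to 5000 bp and 6 above that, and triplets have 12 in each of these bins.

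The gaps of a triplet were often unequal, and a longer and a shorter gap are in part a matter of definition. The shorter gap of a triplet had a median of 226 bp and the longer a median of 1591 bp, and the median ratio of the longer to the shorter was 4.8 (range 1.06 to 94.4). In 24 of 43 triplets only 1 of the 2 gaps was under 500 bp, in 5 both were, and in 14 neither was. Pairs spanned a median of 1756 bp from first to last base, and triplets 3414 bp. Together the runs spanned 451 kb, of which their peaks covered 131 kb (29.1%).

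The rule's limit of 10 kb did not fall at a visible break in the distances. Just inside it, the 3 longest gaps of pairs and triplets were the 9626, 9163 and 9113 bp named above, between peaks scoring 10.40 and 8.84, 7.90 and 14.27, and 13.54 and 11.60. Just outside it, a peak scoring 16.42 on 3R, from 1473603 to 1474422, stood 10480 bp from a pair whose nearer peak scored 11.01. On 2R, single peaks scoring 9.73 and 12.38 were 10849 bp apart, and on 3R a pair was separated by 10978 bp from a run of 5. Of the gaps between neighbouring peaks on the arms, 12 were from 8000 to 10000 bp and 11 from 10000 to 12000 bp. The counts on either side of the limit were thus similar. The nearest peak outside a pair or triplet was a median of 60.9 kb away, 36 of 142 runs had one within 20 kb, and 48 had none within 100 kb.

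The score of the main peak was usually less than 2 times that of the secondary peak. Over 142 runs the main score had a median of 14.5 (range 7.95 to 109.88) and the secondary score a median of 10.7 (range 6.07 to 32.11). The median ratio of main to secondary score was 1.27 (95% exact binomial interval of the median over runs 1.23 to 1.36), with quartiles of 1.14 and 1.61. With scores taken above the list's lowest score, the median ratio was 1.67. The median difference was 2.965 units of −log10 p (range 0.03 to 86.3). As called, the ratio was distributed as follows. It was under 1.2 in 52 runs (36.6%), over 2 in 19 (13.4%) and over 3 in 8 (5.63%). A main peak scores at least as high as its secondary peak by definition, so the size of the ratio is described here and not its direction.

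All 8 runs with a ratio over 3 were pairs, and the highest ratio in a triplet was 2.92. The secondary peak of a triplet is the higher of its other peaks, so ratios in pairs and triplets are not directly comparable. The exact intervals of the shares over 3 overlapped, at 3.55% to 15.3% of pairs and 0% to 8.22% of triplets. Against the weakest peak of a triplet, the main score was up to 4.86 times as high. The largest ratio, 5.94, was that of the 2L pair from 4810507 to 4811922. The strongest 3R pair had a ratio of 4.66 and the 3L pair from 5963539 to 5970081 a ratio of 4.12. At the other end, a 3R pair from 1484903 to 1485558 scored 11.04 and 11.01, a ratio of 1.00, across a gap of 58 bp. A 3R triplet from 9487755 to 9489112 scored 11.28, 11.18 and 8.40, and the 2R triplet from 1542084 to 1559848 scored 13.74, 13.54 and 11.60 with its peaks 7725 and 9113 bp apart. Nearly equal scores thus occurred both at short and at long distances.

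The ratio contains both scores, so its relation to either is partly built in. The 19 runs with a ratio over 2 had a median main score of 31.3 and a median secondary score of 10.1, against 13.9 and 10.8 in the 123 runs with a ratio of 2 or less. In the 32 runs whose main peak scored over 20, the median ratio was 2.14 and the median secondary score was 13.4. In the other 110 runs the median ratio was 1.23 and the median secondary score 10.4. Secondary peaks scoring over 20 were present in 5 runs. Besides the pairs led by 109.88 and 94.74 and the triplets on 3L from 16039301 and on 2L from 9988127, this was a 3R pair from 17199791 to 17203062, which scored 25.30 and 24.43. This pair was named after its values were seen.

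**Figure D3:**
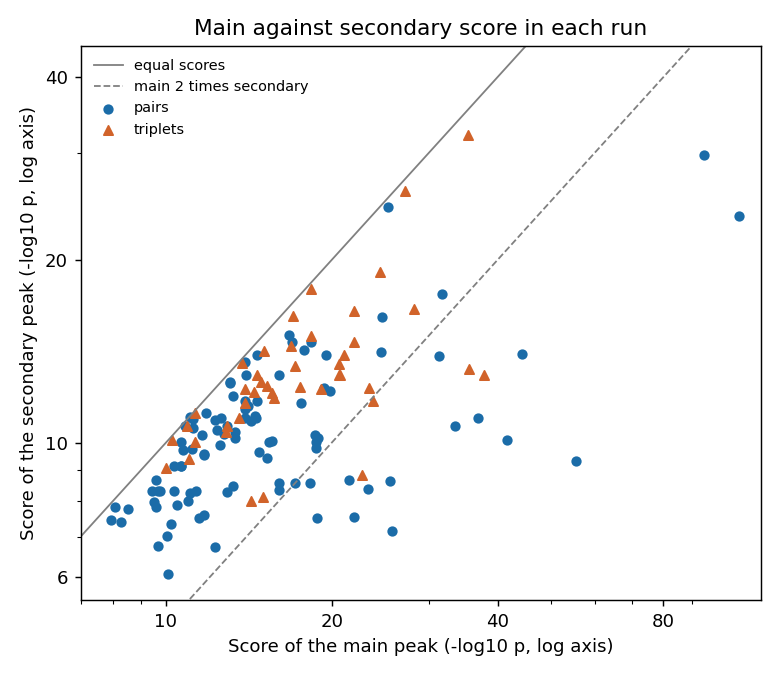
Score of the main peak (horizontal) against score of the secondary peak (vertical), both −log10 p on log axes, for 99 pairs (blue circles) and 43 triplets (orange triangles); the solid line marks equal scores and the dashed line a main score 2 times the secondary. Most runs lie between the lines, 19 lie past the dashed line, and only 5 secondary peaks exceed 20.

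The ratio was similar in close and in distant pairs. In the 38 pairs with a gap under 500 bp the median ratio was 1.27, in the 30 pairs from 500 to under 2000 bp it was 1.26, and in the 31 pairs at 2000 bp or more it was 1.39. The 95% exact binomial intervals of these medians overlapped, at 1.21 to 1.43, 1.15 to 1.54 and 1.23 to 1.56. Main scores had medians of 12.3, 14.3 and 13.9 in the same order, and secondary scores 9.96, 10.5 and 9.75.

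Triplets had higher scores than pairs at both ranks. Their main peaks had a median of 16.9, against 13.9 in pairs, and their secondary peaks a median of 12.4, against 10.1 in pairs. The top peaks of 3 are chosen from more values than those of a pair, so higher scores are partly built in. The third peak of a triplet had a median score of 9.88 (range 6.72 to 15.87) and a median width of 266 bp, and the main score was a median of 1.72 times the third. The median ratio of main to secondary score was 1.24 in triplets and 1.31 in pairs. The secondary peak of a triplet is the higher of its other peaks, so these medians are not directly comparable. Their exact binomial intervals overlapped, at 1.17 to 1.42 in triplets and 1.23 to 1.43 in pairs.

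The main peak showed no fixed place within a run. In pairs it lay at the lower coordinate in 51 of 99 (51.5%, 95% exact interval 41.3 to 61.7). In triplets it lay at the lower end in 16, in the middle in 15 and at the upper end in 12 of 43. The main and the secondary peak were next to each other in 31 triplets (72.1%, 95% exact interval 56.3 to 84.7). In the remaining 12 they stood at both ends with the weakest peak between them, as in the 2L triplet from 9988127 to 9990257. A triplet offers more placements with these peaks adjacent than apart, so a majority is built in.

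The stronger peak was usually also the wider one. Main peaks had a median width of 399 bp (range 201 to 1468) and secondary peaks 286.5 bp (range 201 to 1736). The main peak was the widest of its run in 99 of 142 runs (69.7%, 95% exact interval 61.5 to 77.1). This held in 73 of 99 pairs and in 26 of 43 triplets. A main peak has fewer others to exceed in a pair than in a triplet, so these shares are not directly comparable. In pairs, the secondary peak was wider in 25 and the widths were equal in 1. Widths of 500 bp or more were found in 49 main peaks (34.5%) and 21 secondary peaks (14.8%). Widths of 250 bp or less were found in 32 main peaks (22.5%) and 51 secondary peaks (35.9%).

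Width and score went together most clearly in the strong runs. Where the main peak scored over 20, it was the widest in 29 of 32 runs (90.6%, 95% exact interval 75.0 to 98.0), against 70 of 110 runs (63.6%, 53.9 to 72.6) where it scored 20 or less. This split also separates runs by score ratio, with medians of 2.14 and 1.23, so part of the contrast is built in. Runs in which the main peak was not the widest had a median score ratio of 1.17, against 1.51 in those where it was. The widest member of all was a secondary peak, 1736 bp on 3R from 17199791 to 17201526 and scoring 24.43, beside a main peak of 944 bp. Over all 327 members, score and width had a Spearman rank correlation of 0.64, and over the 351 single peaks it was 0.59. Peaks of 1 list share their libraries and their caller, so no p-value is attached.

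**Figure D4:**
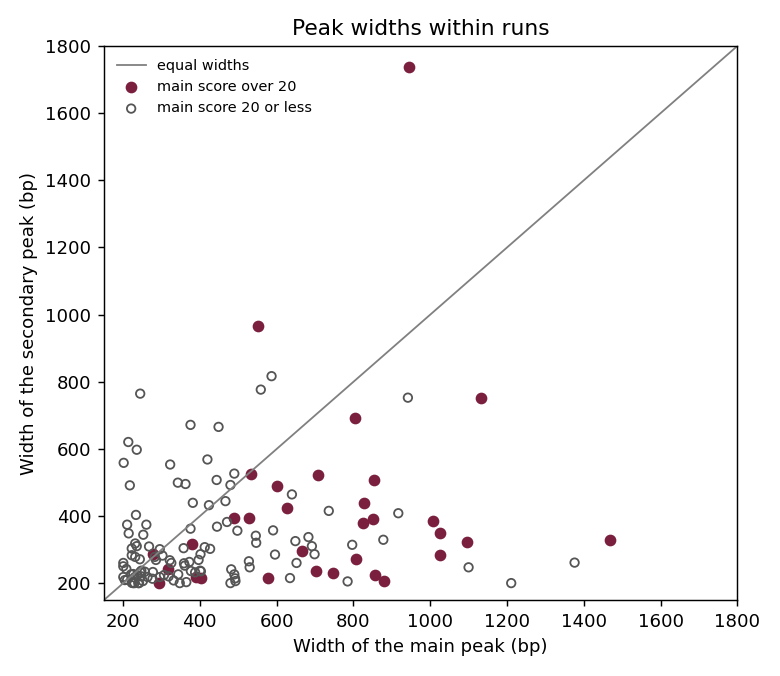
Width of the main peak (horizontal, bp) against width of the secondary peak (vertical, bp) in the 142 runs, filled where the main score is over 20 and open where it is 20 or less; the line marks equal widths. Of the 32 filled points, 29 stand for runs in which the main peak is the widest.

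Members had scores and widths close to those of single peaks. The median score was 11.7 for members (95% exact binomial interval of the median over peaks 11.2 to 12.4) and 11.8 for single peaks (11.3 to 12.3). Median widths were 319 and 311 bp, in the same order. Scores over 20 were found in 37 of 327 members (11.3%) and in 35 of 351 single peaks (9.97%). Scores above 15.78, the upper quartile of placed peaks, were found in 21.4% of members and 22.5% of single peaks. Narrow peaks of 250 bp or less made up 30.9% of members and 27.1% of single peaks, and peaks of 500 bp or more 22.9% and 19.7%.

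Larger runs had medians near those of members once the 2L tandem array was set aside. This array, a stretch of wide peaks covered by runs with at least 2 peaks of 2500 bp or more, held none of the members. Peaks in runs of 5 or more outside it had a median score of 12.3 and a median width of 341.5 bp over 172 peaks, and peaks in runs of 4 had medians of 11.2 and 335 bp over 72 peaks. Gaps in runs of 4 or more outside the array had a median of 633 bp over 201 gaps, against 789 bp in pairs and triplets. These groups were cut from 1 list by position, and no difference between them was tested.

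**Figure D5:**
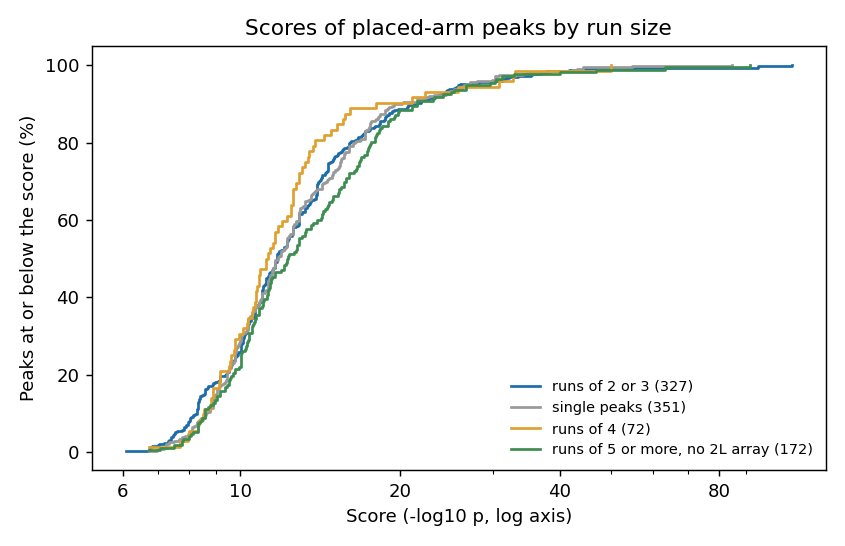
Share of peaks (vertical, %) at or below each score (horizontal, −log10 p on a log axis) for members in runs of 2 or 3 (327 peaks), single peaks (351), runs of 4 (72) and runs of 5 or more outside the 2L array (172). The curves of members and single peaks nearly coincide, with medians of 11.7 and 11.8.

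Pairs and triplets were present on every arm, least often on X. They held 101 of 245 peaks on 3R (41.2%, 95% exact interval 35.0 to 47.7), 77 of 210 on 2R (36.7%, 30.1 to 43.6), 65 of 181 on 3L (35.9%, 28.9 to 43.4), 63 of 213 on 2L (29.6%, 23.5 to 36.2), 8 of 32 on chromosome 4 (25%, 11.5 to 43.4) and 13 of 72 on X (18.1%, 9.98 to 28.9). Neighbours in this order had overlapping intervals. On 2L the share was 36.4% with the array and runs at arm ends left out, and on chromosome 4 it was 80% of the 10 remaining peaks. A run at an arm end held a peak in the first 25 kb of the arm or within 25 kb of the end of its last peak. The last run of each arm was thus always left out, wherever the arm itself ends. X had few peaks of any kind near each other: 53 of its 72 peaks (73.6%) were single, against 27.7% to 38.0% on the 4 large autosome arms. Those arms also held more peaks, 181 to 245 each, and whether the number of peaks accounts for the difference was not tested.

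X held 5 pairs and 1 triplet. Besides the triplet led by 24.43, its strongest run was a pair from 11607975 to 11610338, which scored 18.70 and 10.03 and held the widest X member, 736 bp. A pair from 15705837 to 15707410 scored 17.17 and 8.59, and one from 1375804 to 1377040 scored 10.83 and 10.65. X members had a median score of 10.7, against 12.9 for the 53 single X peaks, and the 13 members are few for such a comparison. Chromosome 4 held 1 pair and 2 triplets. Its strongest and widest member was a peak of 1025 bp from 86738 to 87762, scoring 21.08, in a triplet whose other peaks scored 13.93 and 10.39. The second chromosome 4 triplet, from 1295830 to 1302296, had 3 nearly equal scores, 18.30, 17.93 and 15.19. The X pairs from 15705837 and from 1375804 and the second chromosome 4 triplet were named after their values were seen.

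On each large autosome arm the widest member was a different peak from the strongest, and both lay in pairs. The widest was 1100 bp on 2L from 8083445 to 8084544, scoring 18.91, 1376 bp on 2R from 13758057 to 13759432, scoring 16.04, and 1468 bp on 3L from 19555764 to 19557231, scoring 21.90. The corresponding highest scores were 55.44, 94.74 and 41.66. Median gaps within runs were 711 bp on 2L, 606.5 bp on 2R, 847 bp on 3L and 636 bp on 3R. Median score ratios on these arms were 1.24, 1.25, 1.30 and 1.31 in the same order.

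Part of the scores can be turned into read heights. A Poisson model with a mean of 55.7 and whole-number heights gave tail p-values whose −log10 matched 567 of the 1276 scores (44.4%) to within 0.006, while the best mean over 0.5 away matched 13.3%. MACS, the authors' caller, is known to test against the largest of a genome-wide and local means, so this mean is taken here as a common background. Scores at it were found in 99 of 327 members (30.3%, 95% exact interval 25.3 to 35.6), against 129 of 351 single peaks (36.8%, 31.7 to 42.0). The shares were 23.6% in runs of 4 and 36.5% in runs of 5 or more. All these groups on placed arms lay below the 44.4% of the whole list, which includes the dropped scaffolds. On X it was 10 of 13 members, against 17 of 77 on 2R, 26 of 101 on 3R, 19 of 63 on 2L, 24 of 65 on 3L and 3 of 8 on chromosome 4. Single peaks were not counted by arm, so these values do not set members apart from other peaks of an arm. X gave 53 of the 351 single peaks but 13 of the 327 members. The shares of members and of single peaks were not adjusted for arm, so their difference may follow the arms.

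In 25 runs both the main and the secondary score lay at the common background, so their heights could be set side by side. Main peaks had a median height of 121 and secondary peaks 114, or 2.17 and 2.05 times the background mean. The median height ratio was 1.07 (range 1.01 to 1.25), while the median score ratio in the same runs was 1.24. The heights were computed from the same scores, and above the mean a score rises faster in proportion than its height. A score ratio larger than the height ratio is therefore built into the model, and only its size is described. The highest score ratio among the 25 runs was 2.00 and the highest main score 31.67, so the 6 strongest pairs are not among them, while 6 of the 25 runs had a main score over 20.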

How the data were processed

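ChIP DNA and input DNA of Drosophila melanogaster embryos were sequenced in 2 libraries each. Per the file headers, peaks were called by MACS in FlyBase release 5 coordinates. The submitters' processing notes name BWA, MACS2, CASAVA 1.7.0.2 and 1.7.0.3, and the build BDGP5. For the threshold, the pooling of libraries and duplicates, the step taken is not given in the sources used here. Each deposited score was read as −log10 of a p-value made by the authors' caller, from the values alone. A deposited list can merge or split enriched stretches, which sets gaps and widths.

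Runs were built at 10 kb. Ties for the main peak went to the wider. Named runs were the 6 pairs and 6 triplets with the highest main score, the 3 largest and 3 smallest score ratios, the 3 longest and 3 shortest gaps, the strongest and widest member of each arm, and peaks beside the 10 kb limit. Members and rules were chosen with earlier results of these data known. No test was made: all measures come from the comparison that called the peaks. Intervals are exact binomial at 95% over peaks, gaps or runs, which are not replicates, and cover counting error only. The background mean was scanned from 2 to 200 in steps of 0.001. Run building and the scan were tested on simulated data. Peaks were not assigned to genes and no sequence was used, since the table used here is of release 6. Python 3.11.15, numpy 2.4.6, pandas 2.3.3, scipy 1.17.1 and matplotlib 3.10.9 were used.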

Additional observations from a re-analysis of the deposited data

How the results depend on the processing

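No paired analysis was possible because the list holds 1 value per peak and none per library, so replicates could neither be blocked nor left out. Of 42 alternatives, 27 left a count within 1.5 times or a median or share within its 95% interval. With a joining distance of 20 kb the median gap was 1196 bp, against 789 bp at 10 kb, since the limit itself bounds it. Among the 476 placed peaks with the highest scores, members numbered 150 in 54 pairs and 14 triplets, with a median score of 15.1 and width of 456.5 bp. Fewer peaks and higher scores are built into this choice, and its single peaks had medians of 15.4 and 426.5 bp. With peaks within 500 bp merged there were 23 triplets, a median gap of 1994.5 bp, a median score of 12.4 and a median width of 369 bp. Midpoint distances had a median of 1243.5 bp. The median score ratio was 1.67 with scores taken above the list's lowest score. Without runs at arm ends or in the 2L array, members were 36.4% on 2L and 80% on chromosome 4. A tolerance of 0.02, chosen after seeing the data, put 39.8% of members at the common background, against 30.3% at 0.006. The wider tolerance also matches more scores by accident, and how many was not counted. The median score ratio stayed at 1.24 to 1.33 and the share of runs with the widest main peak at 68.8% to 72.3% under the other settings.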
